A study of Mus musculus with 16 samples.

Results

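The genes described here encode the core of the Mediator complex and RNA polymerase II (Pol II). They are 26 Mediator subunits (Med1, Med4, Med6 to Med11 and Med14 to Med31) and the 12 Pol II subunits (Polr2a to Polr2l). They were listed by name as subunits of these complexes, with earlier results of these data known, and are 38 of the 50686 annotated mouse genes in the count files, of which 29942 had at least 1 count. After the filter on low counts 37 of the 38 were tested in every comparison, and Med10, listed at 0 counts in all 16 libraries, was not.

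Mediator is a large assembly that links transcription factors bound at enhancers and promoters to Pol II, the enzyme that makes messenger RNA. Its head and middle modules contact the polymerase, its tail is bound by many activators, and Med14 is the scaffold that holds the modules together. CDK8, or its close relative CDK19, sits with cyclin C, MED12 and MED13 in a kinase module that attaches to this core reversibly and competes with Pol II for it. Pol II is built around a pair of large catalytic subunits and carries smaller subunits for assembly, a detachable stalk and several parts shared with RNA polymerases I and III.

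The samples were mouse bone marrow lines of strain C57BL/6N transformed with the BCR-ABL1p185 oncogene, carried by a retrovirus with a green fluorescent marker, and every group shared that oncogene. In 4 lines, labelled wildtype and described in the study's text as Cdk8 fl/fl, Cdk8 was intact, and in 4 lines, labelled Cdk8 KO, it was deleted in blood cells by Vav-Cre (Cdk8Δ/Δ). Each line was grown for 48 h with the solvent DMSO or with Senexin B, an inhibitor of the CDK8 and CDK19 kinases, at 1 µM, which gives 4 groups of 4 libraries. The design separates loss of the CDK8 protein from block of its kinase activity. The labels do not give the age of the donor animals, and a line is the unit of replication.

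Libraries held 13145876 to 18349425 counted reads. Whole-gene Cdk8 levels, as read counts scaled to library size (CPM), were 68.7, 61.8, 63.3 and 65.8 in wildtype DMSO lines 1 to 4 and 35.3, 52.1, 47.1 and 42.8 in Cdk8 KO DMSO lines, lower in every deleted line. With Senexin B they were 89.4, 56.3, 56.8 and 55.2 in wildtype and 43.9, 61.7, 42.9 and 41.2 in Cdk8 KO lines, where the groups overlapped and Cdk8 KO line 2 lay above wildtype lines 2 to 4. The count covers the whole gene, exons outside the deletion included. Markers of pro-B cells were detected in every library, with the transcription factors Pax5 at 786 to 1616 CPM and Ebf1 at 695 to 1286 CPM, and the receptor component genes Cd79a at 318 to 1163 CPM and Igll1 at 624 to 1887 CPM. Of the T cell markers and of the myeloid markers 5 of 6 each were under 1 CPM in every library, as were 3 of 5 erythroid markers. Of the remaining ones Cd2 ranged from 24.3 to 231 CPM, Lyz2 from 0.164 to 24.6, Klf1 from 0.107 to 1.32 and Hbb-bt from 2.76 to 264, and their part in the results was not tested. The Senexin B library of wildtype line 2 stood apart in its trend with length over all genes: the deviation of a gene from its mean over the 16 libraries fell with gene length there (r = -0.22 across 14164 genes and -0.49 across the 37 members, a description across genes that share the library). The 12 shortest members, under 1500 bases, had a median deviation of 0.50 (log2) in it and the 12 longest, from 4000 bases, one of -0.10. The main results that it moves are given with and without it. In the other libraries r across all genes lay between -0.07 and 0.11. Across members it lay between -0.23 and 0.49, with 0.49 in wildtype DMSO line 1 and 0.45 in wildtype Senexin B line 4.

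**Figure D1:**
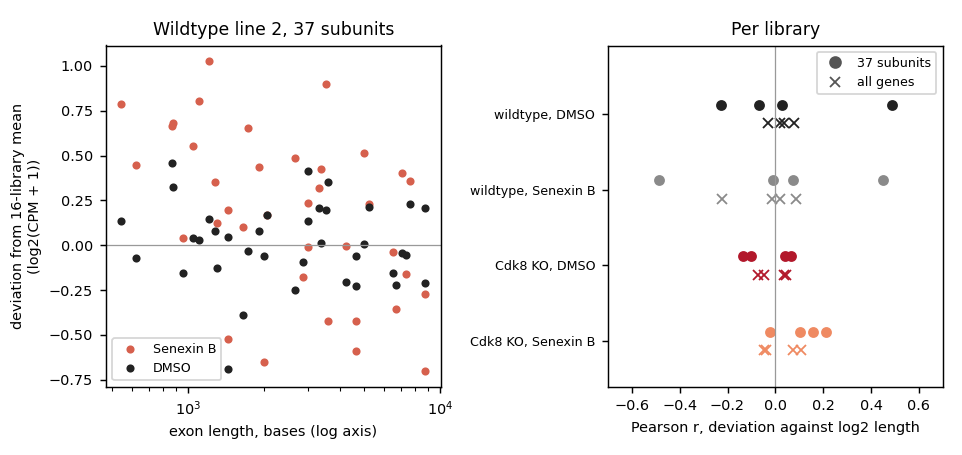
Left, deviation of each of the 37 members from its own mean over 16 libraries (vertical axis, log2(CPM + 1)) against exon length (horizontal log axis, bases) in the DMSO and Senexin B libraries of wildtype line 2; right, Pearson r of deviation against log2 length in each of the 16 libraries, for the members (circles) and all genes (crosses). With Senexin B the short members lie mostly above 0, with a median of 0.50 for those under 1500 bases, and r is -0.49.

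The 37 measured subunits spanned a wide range of level per length (read counts scaled to library size and exon length, RPKM), and Pol II subunits stood above Mediator subunits. The median of the 12 Pol II subunits was 52.9 RPKM and that of the 25 Mediator subunits 11.6, and the ratio of these medians was 3.602 to 5.524 in the 16 libraries. Highest was Polr2f, a subunit shared by all 3 nuclear polymerases, at 115.8 ± 28.1 RPKM (SD, n = 16 libraries), followed by the assembly subunit Polr2j at 81.3 ± 18.7 and Polr2a, the largest subunit with the repeated C-terminal tail, at 79.4 ± 16.7. Polr2f was above Polr2j in 16 of 16 libraries, whereas Polr2j was above Polr2a in 8 of 16, so that this pair of neighbours could not be ordered. The stalk subunits Polr2d (71.5) and Polr2g (63.3) and the peripheral subunit Polr2i (67.1) lay close behind and changed places between libraries. Polr2b, the second catalytic subunit, was at 42.4 RPKM and below Polr2a in 16 of 16 libraries, by a ratio of 1.35 to 3.29.

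Among Mediator subunits Med30 (60.9 RPKM) and Med15 (49.8), the target of many activators, led, both listed here in the tail. The scaffold Med14 (32.2) and the tail member Med24 (31.9) followed, with Med14 the higher in 8 of 16 libraries. By the length of all exons joined, the head, middle and tail modules had similar medians, of 11.2, 12.8 and 12.8 RPKM. At the low end were Med18 and Med7 (5.24 each), Polr2l (4.69), Med20 (3.64), Polr2c (3.12) and Polr2k (2.03). Polr2k, another shared subunit, had only 13 to 28 counts per library, and 24.3% of the 50-base windows in its longest coding transcript recur in other annotated genes, and reads that matched several places were not counted. Such windows also made up 21.0% of Polr2l, 14.5% of Polr2h, 13.8% of Polr2c and 11.2% of Med4, and 3.37% or less of the other members, and the levels of these genes are uncertain to that extent. Med10, a middle module subunit at chr13:69809882-69816094 (GRCm38, plus strand), shares 96.3% of its 862 exon bases with Gm26819 on the opposite strand, and reads that fall on more than 1 gene were not counted. Its 0 in 16 libraries is therefore no measure of its transcript. Other members also share exon bases with genes on the opposite strand. The largest shares after Med10 were Med20 28.4%, Polr2i 26.8%, Med31 26.3%, Med7 21.2%, Polr2c 18.1%, Polr2j 15.9% and Med21 15.5%. How far uncounted reads lower the levels of these genes was not tested.

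The length used sets part of this order. With the longest coding transcript in place of all exons joined, Polr2j (99.9), Polr2i (99.3), Polr2a (83.3) and Polr2f (71.1) were the highest, and Med20 moved from 3.64 to 12.97 RPKM because its exons span 7324 bases and its coding transcript 2054. Med21 moved further, from 10.64 to 46.05 RPKM, and Med24 reached 60.99, above Med30 at 52.69. The median of the head was then 12.97 RPKM (Med20) and that of the tail 22.47 (Med23), so these modules no longer had similar medians. Polr2k, Polr2c and Polr2l were the lowest of the 37 by this length. These transcripts come from a later GENCODE release than the M13 models that were counted. For Polr2f, Med30 and Polr2d, among others, the transcript was longer than the joined exons, at 885 against 543 bases for Polr2f. Part of the new order therefore reflects the release, and how much was not tested.

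**Figure D2:**
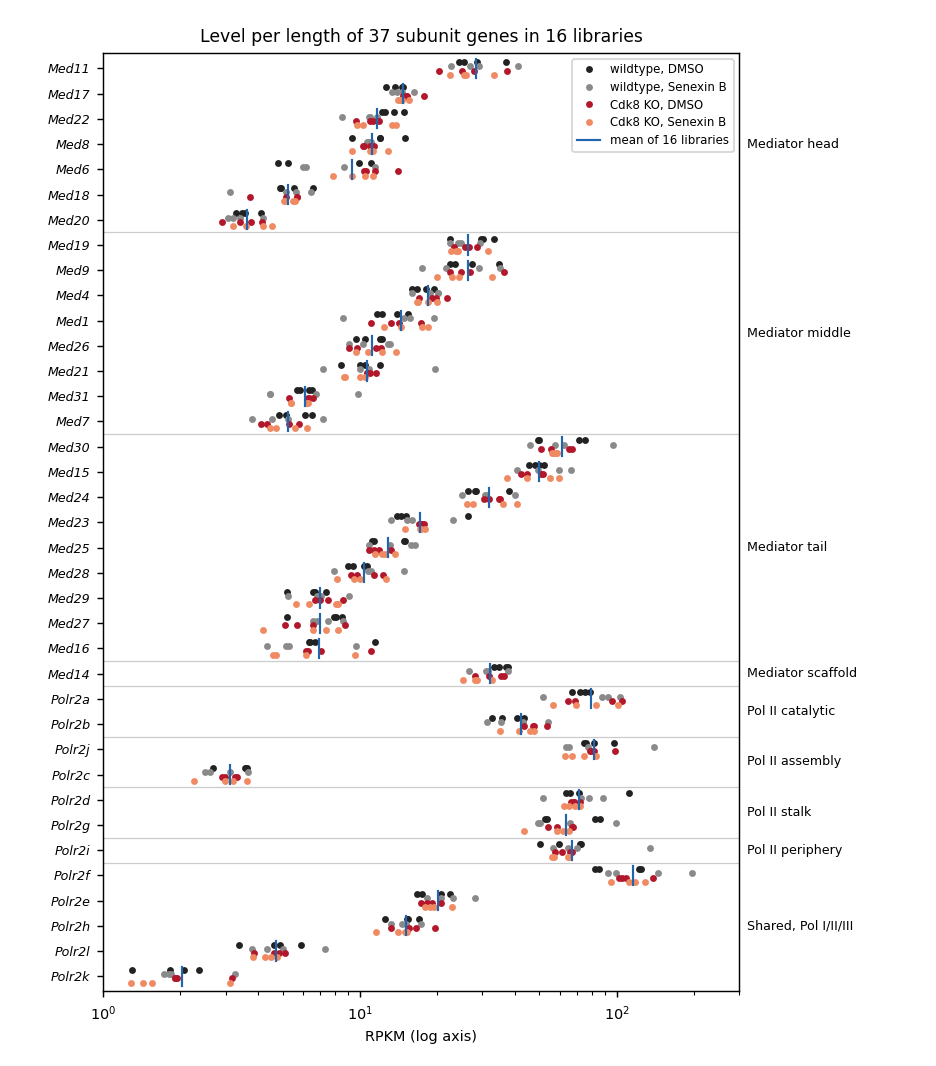
Level of the 37 measured subunit genes in RPKM (horizontal log axis), grouped by module, with 1 point per library coloured by group and a blue bar at the mean of the 16 libraries. Polr2f is highest at 115.8 RPKM and Polr2k lowest at 2.03, and the 4 groups overlap for nearly all genes.

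Loss of Cdk8 in DMSO moved no core subunit past the threshold, an adjusted p under 0.05 with a change of more than 2-fold in edgeR's quasi-likelihood test. Over all genes the same comparison called 1 of 13174 (0.00759%). At an unadjusted p under 0.05 there were 2 members of 37, Polr2b and Med22, or 5.41% against 5.32% of all genes, a share close to the background. DESeq2 also called 0 members, with the same 2 at an unadjusted p under 0.05, and 32 genes over the whole table. The median log2 difference (Cdk8 KO minus wildtype) was -0.02 for the members and 0.0017 for all genes, with 16 members higher and 21 lower.

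Polr2b was at 203, 167, 192 and 152 CPM in wildtype DMSO lines 1 to 4 and at 220.2, 203, 223 and 249 in Cdk8 KO DMSO lines. The groups did not overlap, but wildtype line 1 and Cdk8 KO line 2 all but touched. Its log2 difference was 0.33 (SE 0.13, 95% interval 0.05 to 0.62), a 1.26-fold higher level, with an unadjusted p of 0.0278 and an adjusted p of 0.897 by edgeR's quasi-likelihood test. Polr2a, its partner in the catalytic core, was at 506, 533, 474 and 555 CPM in the wildtype and 674, 454, 486 and 743 in the Cdk8 KO DMSO lines. It overlapped between genotypes, with Cdk8 KO lines 1 and 4 highest (log2 difference 0.19, interval -0.21 to 0.60).

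Med22, a small head module subunit, was at 43.9, 53.4, 45.4 and 48.9 CPM in wildtype DMSO lines and 39.7, 42.9, 34.8 and 40.6 in Cdk8 KO DMSO lines. Every Cdk8 KO value was below every wildtype value, by -0.28 on the log2 scale (SE 0.12), with an unadjusted p of 0.0495 and an adjusted p of 0.897 by edgeR's quasi-likelihood test. Med6, also of the head, was at 14.3, 7.62, 6.97 and 16.04 CPM in wildtype and 16.6, 14.97, 15.3 and 20.3 in Cdk8 KO lines. Here wildtype lines 2 and 3 were low and the other 6 libraries ran from 14.3 to 20.3 CPM, so the difference of 0.58, the largest of the 37, had an interval of -0.11 to 1.28. Together, 2 members (5.41%) had non-overlapping groups, Polr2b above and Med22 below, beside 3.06% of all genes.

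For 36 of the 37 members the 95% interval of this difference lay wholly within a 2-fold change in either direction, against 64.0% of all genes tested. The exception was Med6. For genotype with Senexin B it was 34 of the 37 members against 58.8% of all genes, and for the interaction 32 against 42.4%. Intervals narrow as counts rise, and the members were not set against genes of like counts. In bulk RNA a smaller share of some cells and less RNA per cell cannot be told apart, here or in the comparisons that follow. Without wildtype line 1, whose DMSO count file names a different folder in its header from the other 15, the members with an unadjusted p under 0.05 were Med22, Med23, Med24 and Polr2b (adjusted p 0.405 to 0.444 by edgeR's quasi-likelihood test), while all genes rose to 10.6%. Med23, a tail subunit, was at 176, 96.7, 101 and 93.1 CPM in wildtype DMSO lines and 116, 113, 118 and 117 in Cdk8 KO DMSO lines, and wildtype line 1 lay far above the other 7 libraries.

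**Figure D3:**
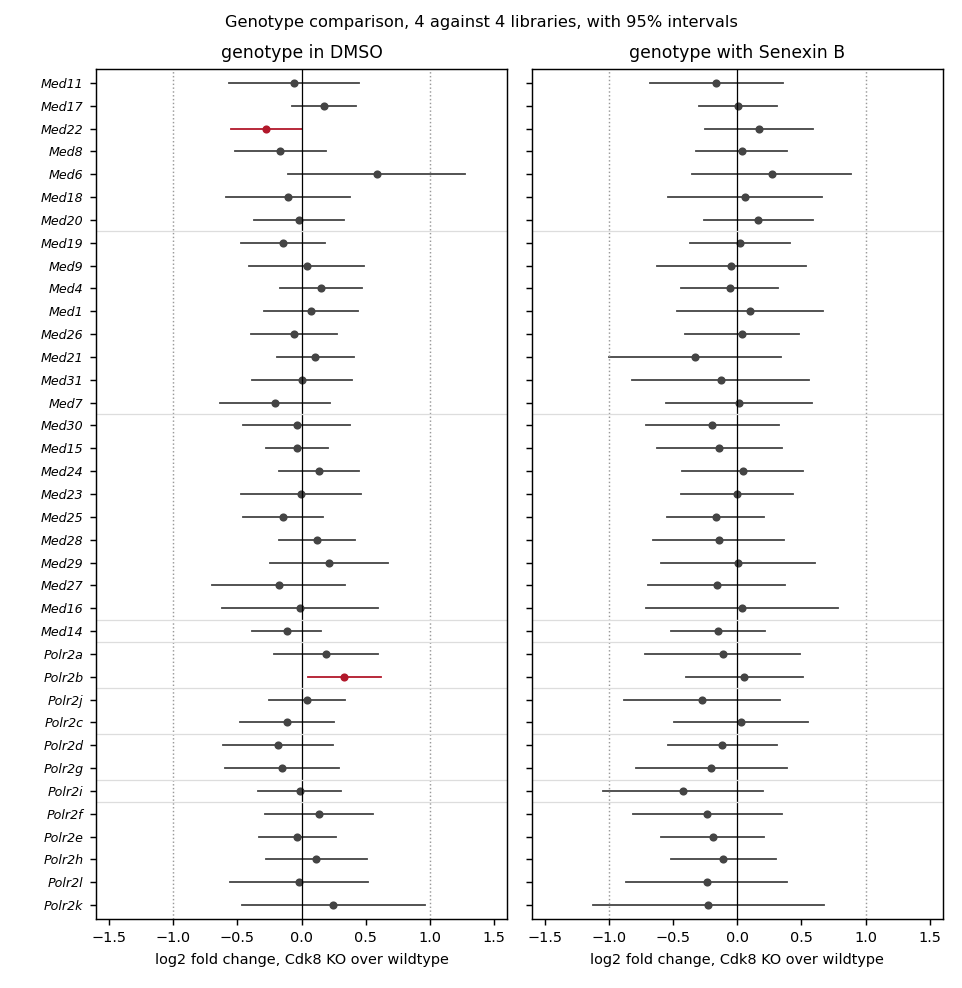
Log2 difference between Cdk8 KO and wildtype lines with its 95% interval for 37 subunit genes (horizontal axis), in DMSO (left) and with Senexin B (right), with dotted lines at a 2-fold change and an unadjusted p under 0.05 in red. The 2 red genes are Polr2b (0.33) and Med22 (-0.28) in DMSO, and the other intervals cross 0.

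With Senexin B in both genotypes, 0 members were called and 0 had an unadjusted p under 0.05, by edgeR's quasi-likelihood test or by DESeq2. The background was 0% called and 1.55% with an unadjusted p under 0.05, and DESeq2 called 10 genes in all. The median difference of the members was -0.11 against -0.0036 for all genes. It came from Pol II, where 10 of 12 subunits were lower in the Cdk8 KO lines (median -0.20), while the 25 Mediator subunits had a median of 0.01. Without the Senexin B library of wildtype line 2, Pol II was split 6 to 6 with a median of -0.02, and the members' median was 0.02. No member had groups that did not overlap, beside 1.05% of all genes.

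Polr2i, a peripheral Pol II subunit that helps transcriptional accuracy, had the smallest p. It was at 68.1, 162, 85.1 and 78.1 CPM in wildtype Senexin B lines 1 to 4 and at 78.05, 67.9, 68.7 and 79.2 in the Cdk8 KO Senexin B lines, a log2 difference of -0.42 (SE 0.27) with an unadjusted p of 0.156 by edgeR's quasi-likelihood test. The high value was that of wildtype line 2, and without it the difference was -0.07. Med21, a middle module subunit that forms a flexible hinge with Med7, showed the same shape at 38.1, 69.2, 35.2 and 25.3 CPM in wildtype and 35.4, 36.7, 30.5 and 30.8 in Cdk8 KO lines with Senexin B. Its difference of -0.33 (SE 0.29) turned to 0.02 without wildtype line 2. Polr2e, shared by the 3 polymerases, was at 55.2, 74.9, 61.7 and 48.9 CPM in wildtype and 47.99, 50.2, 51.8 and 60.97 in Cdk8 KO lines with Senexin B (-0.19, SE 0.18), and again wildtype line 2 was highest, with -0.07 without it.

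Senexin B in the wildtype lines called 0 of 37 members and 0% of all genes by edgeR's quasi-likelihood test. None of the members had an unadjusted p under 0.05, beside 3.8% of all genes, and DESeq2 called 0 members and 19 genes. The members' median log2 change (Senexin B minus DMSO) was 0.07 against 0.02 for all genes, with 23 higher and 14 lower, and the 5 shared polymerase subunits were all higher (median 0.20). Without the Senexin B library of line 2 the members' median was -0.04, 16 were higher and 21 lower, and the shared subunits were split 3 to 2 with a median of 0.11. Without both libraries of line 1 the members' median was 0.03, 19 were higher and 18 lower, and the shared subunits were again split 3 to 2. In that fit 1 member, a catalytic subunit, had an unadjusted p under 0.05, while all genes rose to 8.85%. With all 4 lines Med22 was the 1 member (2.70%) with groups that did not overlap, beside 2.1% of all genes: its DMSO values given above lay over 39.7, 30.8, 39.2 and 42.03 CPM with Senexin B. Its change was -0.33 (SE 0.16, 95% interval -0.68 to 0.03) with an unadjusted p of 0.0659, and -0.24 without the Senexin B library of line 2.

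Polr2f stood at 44.6, 67.5, 66.2 and 46.1 CPM in DMSO and 49.98, 107, 78.3 and 54.04 with Senexin B in wildtype lines 1 to 4. It was higher with Senexin B in each of the 4 lines, most in line 2, and the groups overlapped (0.37, SE 0.27, or 0.12 without the Senexin B library of line 2). Polr2f and Med29, a tail subunit, were the 2 members (5.41%) higher in 4 of 4 wildtype lines, beside 8.3% of all genes. Lower in 4 of 4 were Med14, Med16 and Med22 (8.11%), beside 9.37%. Polr2i, at 60.9, 87.7, 87.4 and 72.4 CPM in DMSO, was higher in 3 of 4 lines and differed by 0.36 (SE 0.28) with line 2 and by 0.01 without its Senexin B library. With the line taken as a block, so that each Senexin B library is set against the DMSO library of its own line, 45 genes (0.346%) were called and 0 members. Med16 was the member with an unadjusted p under 0.05 in that fit, 1 of 37 where all genes gave 10.3%. Its change there was -0.35 (SE 0.14) with an unadjusted p of 0.0406 and an adjusted p of 0.454 by edgeR's quasi-likelihood test.

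In the Cdk8 KO lines, where CDK19 is left as a target of Senexin B, 0 members were called, 0% of all genes were called and no member had an unadjusted p under 0.05, beside 1.83% of all genes (edgeR's quasi-likelihood test). DESeq2 called 0 members and 0 genes. The members' median was -0.05 against 0.01 for all genes. Of the 12 Pol II subunits 11 were lower, with a median of -0.10, and Polr2e was the exception. Med21 was the 1 member (2.70%) whose groups did not overlap, beside 1.6% of all genes.

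Counted by line, 10 members (27.0%) were lower with Senexin B in 4 of 4 Cdk8 KO lines, beside 10.4% of all genes. They were Med6, Med17, Med21, Med16 and Med14 of Mediator and Polr2b, Polr2j, Polr2i, Polr2k and Polr2l of Pol II. Med1, the middle module subunit that binds nuclear receptors, was the 1 member (2.70%) higher in 4 of 4, beside 8.68% of all genes. These counts carry no test, since members share their libraries and many of the changes were small: the 10 ranged from -0.28 to -0.05 in the fit.

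Polr2j, which pairs with Polr2c to start the assembly of the enzyme, stood at 89.8, 87.2, 87.96 and 109 CPM in DMSO and 73.8, 69.7, 82.6 and 91.3 with Senexin B in Cdk8 KO lines 1 to 4. All 4 lines were lower with Senexin B and line 4 was the highest of each group. Its change was -0.23 (SE 0.13) with an unadjusted p of 0.0981 by edgeR's quasi-likelihood test. With the line as a block the unadjusted p was 0.0293 and the adjusted p 0.416. In wildtype lines the same gene was at 84.05, 89.9, 108 and 82.1 CPM in DMSO and 70.4, 155, 85.7 and 72.1 with Senexin B, lower in 3 lines and higher in line 2. Med21 stood at 37.7, 37.4, 38.6 and 40.7 CPM in DMSO and 35.4, 36.7, 30.5 and 30.8 with Senexin B in the Cdk8 KO lines. It was lower by -0.21 (SE 0.11) with an unadjusted p of 0.0981 by edgeR's quasi-likelihood test. In the wildtype lines, at 36.8, 42.2, 35.1 and 29.8 CPM in DMSO, it was lower only in line 4. With the block, 7 genes (0.0527%) were called and 0 members, and Med16 and Polr2j (5.41%) had an unadjusted p under 0.05, beside 10.3% of all genes.

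Over all 8 lines together Senexin B called 0 members and 0% of all genes by edgeR's quasi-likelihood test. None had an unadjusted p under 0.05, beside 4.86% of all genes, and by DESeq2 1 did, Med14, with 0 members and 17 genes called. Without the Senexin B library of wildtype line 2 the count by edgeR was 1 of 37, Polr2j, beside 5.68% of all genes. For 37 of 37 members the 95% interval lay within a 2-fold change, against 74.6% of all genes. Med16, a tail subunit, and the scaffold Med14 were the 2 members (5.41%) lower in 8 of 8 lines, beside 2.69% of all genes, and 0 members were higher in 8 of 8, beside 1.96%. Results over 8 lines take the lines as independent across genotypes, which was not tested.

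The stretch before the start of each of these genes is shown because they are the members that went the same way in every line. The 250 bases before the RefSeq start of Med16 (chr10:79908939-79909188, GRCm38.p6, minus strand, 15 bases from the start used for counting) and the 150 bases before the start of Med14 in the count files (chrX:12762074-12762223, minus strand) are given with motif matches in capitals, a TATAAA match on the opposite strand in Med16 and, in Med14, 1 CCGGAA and 2 GGGCGG matches on the opposite strand.
Med16: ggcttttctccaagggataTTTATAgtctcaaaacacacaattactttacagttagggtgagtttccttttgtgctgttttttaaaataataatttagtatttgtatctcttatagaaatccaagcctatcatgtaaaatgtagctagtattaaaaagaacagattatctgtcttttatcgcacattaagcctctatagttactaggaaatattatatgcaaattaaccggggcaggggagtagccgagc
Med14: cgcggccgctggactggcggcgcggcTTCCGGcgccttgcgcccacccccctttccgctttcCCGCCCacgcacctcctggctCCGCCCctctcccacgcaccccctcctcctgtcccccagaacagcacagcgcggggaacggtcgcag
The Med16 stretch was 33.2% G and C, the lowest of the 31 members found in the RefSeq promoter table, whose median was 56.0% against 52.4% over 32817 promoters. On either strand of those 250 bases GGGCGG was found in 20 of 31 members (64.5%) and 32.7% of all promoters, CCGGAA in 10 (32.3%) and 12.02%, CCAAT in 13 (41.9%) and 33.8%, TATAAA in 5 (16.1%) and 12.4%, and GCATGCGC in 5 (16.1%) and 2.25%. AGATGGCGG was found in 0 of 31 and in 0.448% of all promoters. These are matches of letters, in no case a measured binding site, and Med11, Med25 and Med31 had none. The promoters set beside the members were not matched to them for expression or for G and C content.

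Med16 was at 31.2, 29.6, 29.9 and 53.2 CPM in wildtype DMSO lines 1 to 4 and 24.1, 20.2, 24.7 and 44.9 with Senexin B. The Cdk8 KO lines gave 28.7, 29.3, 32.9 and 51.3 CPM in DMSO and 21.95, 21.5, 28.8 and 44.7 with Senexin B. Line 4 of each genotype was far above the other 3 under both treatments, so the groups overlapped although each line was lower with Senexin B, by -0.53 to -0.19 on the log2 scale (mean -0.32 ± 0.12, SD, n = 8 lines). Without the block the change was -0.31 (SE 0.21) with an unadjusted p of 0.167 by edgeR's quasi-likelihood test. With the line as a block it was -0.33 (SE 0.07, 95% interval -0.49 to -0.17) with an adjusted p of 0.0389 by the same test. In the blocked fit 134 genes (0.946%) were called, Med16 was not among them because its change was under 2-fold, and with no limit on fold it was 1 of 37 members (2.70%) where 2.63% of all genes passed. Leaving out both libraries of any 1 line in the blocked fit gave -0.35 to -0.30 and adjusted p of 0.058 to 0.109, above 0.05 each time.

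Med14 was at 291, 323, 332 and 305 CPM in wildtype DMSO lines 1 to 4 and 270.4, 232, 330.2 and 277 with Senexin B. In the Cdk8 KO lines it was at 278, 245, 319 and 310.2 in DMSO and 249, 221, 245 and 286 with Senexin B. The differences within lines ran from -0.48 to -0.01, smallest in wildtype line 3, and the groups overlapped in both genotypes. Its change over the lines was -0.19 (SE 0.09) with an unadjusted p of 0.0511 by edgeR's quasi-likelihood test. With the line as a block it was -0.19 (SE 0.08), with an unadjusted p of 0.0278 and an adjusted p of 0.234. Med16 and Med14 were the 2 members (5.41%) with an unadjusted p under 0.05 in the blocked fit, beside 16.4% of all genes.

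**Figure D4:**
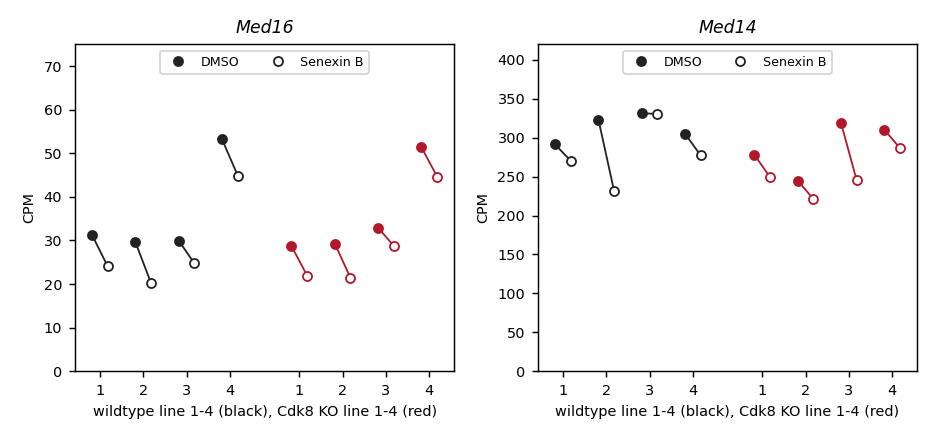
Level of Med16 (left) and Med14 (right) in CPM (vertical axis) for wildtype lines 1 to 4 (black) and Cdk8 KO lines 1 to 4 (red), with filled points for DMSO joined to open points for Senexin B. Every join slopes down, that of Med14 in wildtype line 3 barely, and line 4 of each genotype lies above the others for Med16.

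Med1 moved the other way in most lines. It stood at 135, 107, 102 and 122 CPM in DMSO and 138, 75.5, 129.6 and 170.3 with Senexin B in wildtype lines, and at 96.95, 124, 115 and 152 and 108, 162, 126 and 152 in Cdk8 KO lines. It was higher in 7 of 8 lines, by as little as 0.0030 in Cdk8 KO line 4, and lower by -0.49 in wildtype line 2 (0.15, SE 0.15 over the 8 lines). Polr2e, at 60.1, 44.6, 54.98 and 46.8 CPM in wildtype and 51.03, 48.9, 46.3 and 55.1 in Cdk8 KO DMSO lines, differed by 0.14 with Senexin B (SE 0.10), and by 0.08 without the Senexin B library of wildtype line 2. Its unadjusted p was 0.172 by edgeR's quasi-likelihood test. It had the third smallest p of the members over the 8 lines, after Med14 and Med16, and was higher in 6 of 8.

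**Figure D5:**
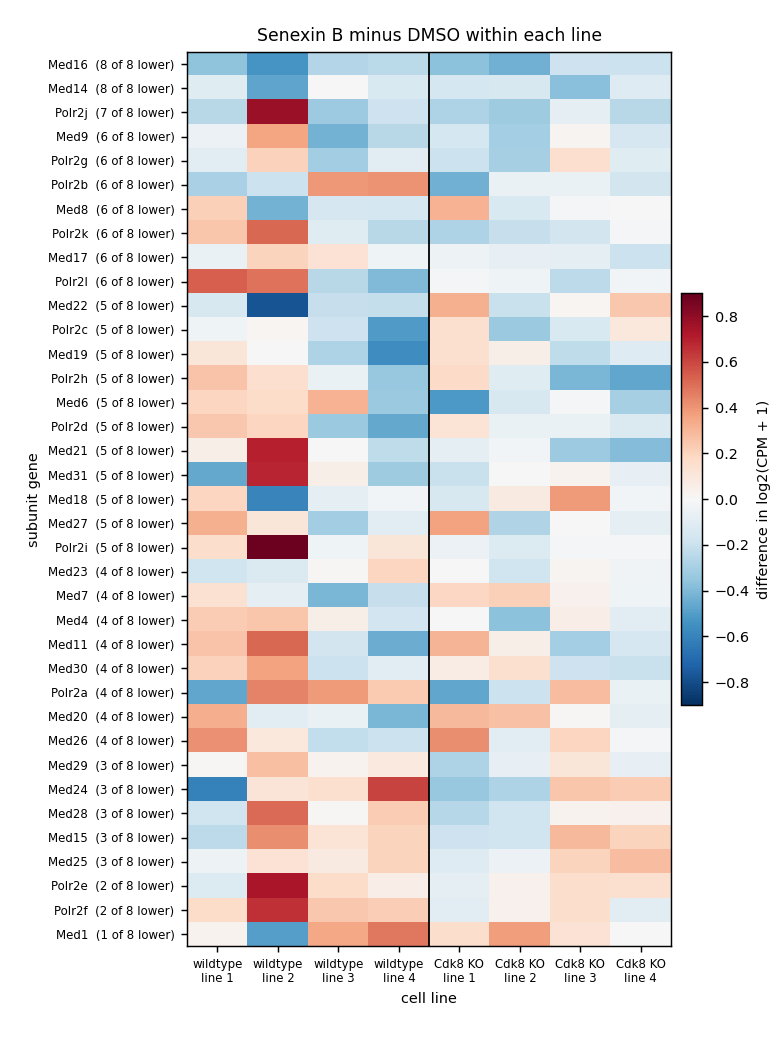
Within-line log2 difference, Senexin B minus DMSO, in log2(CPM + 1), as a colour (blue lower, red higher) for each of the 37 members (vertical axis) in each of the 8 lines (horizontal axis), with members ordered by how many lines were lower. Med16 and Med14 at the top are blue or near white in all 8 lines, and the deepest reds, Polr2i at 0.88 and Polr2j at 0.78, belong to wildtype line 2.

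The remaining subunits of known position changed little with Senexin B on average over the 8 lines. Single lines moved further in both directions, from -0.47 to 0.44 for Polr2a. Med15 stood at 162, 168, 154 and 175 CPM in DMSO and 138, 225, 168 and 202 with Senexin B in wildtype lines, and at 172, 143, 152 and 175 and 151, 126, 186 and 202 in Cdk8 KO lines. Med17, the central subunit of the head, stood at 61.7, 53.6, 62.5 and 58.1 and 59.2, 61.8, 68.5 and 56.5 in wildtype lines, and at 63.7, 62.4, 64.5 and 75.3 and 61.6, 59.3, 60.6 and 65.6 in Cdk8 KO lines. Med17 was among the steadiest members, with an SD between lines of 0.09 (log2), and Med15 was higher with Senexin B in 5 of 8 lines. Med23, which joins the tail to several activators, was at 155, 88.1, 102 and 106 CPM in wildtype and 116, 99.8, 120.2 and 115 in Cdk8 KO lines with Senexin B, and its change over 8 lines was -0.05 (SE 0.14). Med26, the subunit through which elongation factors are recruited, stood at 28.8, 36.6, 35.99 and 31.3 CPM and 38.6, 39.2, 30.8 and 27.2 with Senexin B in wildtype lines, and at 27.2, 34.6, 36.1 and 29.2 and 36.7, 32.2, 41.5 and 28.9 in Cdk8 KO lines. Its 8 lines were split 4 to 4.

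Polr2a with Senexin B was at 365, 726, 619 and 654 CPM in wildtype and 488, 397, 588 and 714 in Cdk8 KO lines. Line 1 of each genotype was lower with Senexin B by -0.47, and wildtype lines 2 to 4 were higher, so the change over 8 lines was 0.04 (SE 0.16). Polr2b with Senexin B was at 165, 146, 252 and 202 CPM in wildtype and 163, 195, 214 and 222 in Cdk8 KO lines, and wildtype lines 1 and 2 were lower and lines 3 and 4 higher. The stalk subunit Polr2d was at 62.9, 60.5, 107 and 68.1 CPM and 74.5, 69.4, 84.5 and 49.2 with Senexin B in wildtype lines and at 63.4, 68.6, 64.8 and 64.95 and 69.02, 65.7, 62.2 and 59.4 in Cdk8 KO lines. Wildtype line 3 in DMSO was its highest library. Polr2g, the other stalk subunit, was at 45.7, 74.3, 71.2 and 46.5 CPM and 42.7, 85.9, 57.2 and 43.4 with Senexin B in wildtype lines and at 58.4, 46.7, 50.6 and 58.1 and 50.9, 37.9, 56.4 and 53.8 in Cdk8 KO lines. The fitted changes of the stalk subunits over the 8 lines were -0.07 (SE 0.13) and -0.08 (SE 0.16), and Polr2g differed between lines more than most members, with an SD of 0.32 (log2).

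The members with the lowest levels gave the same picture. Polr2k, with its few counts, was at 0.809, 1.13, 1.29 and 1.47 CPM in DMSO and 1.15, 2.05, 1.12 and 1.08 with Senexin B in wildtype lines and at 1.19, 1.19, 1.21 and 1.99 and 0.805, 0.894, 0.971 and 1.95 in Cdk8 KO lines. Line 4 was the highest of both Cdk8 KO groups, and the 95% interval of its change in these lines, -1.12 to 0.58, reached past 2-fold. Polr2c, the assembly partner of Polr2j, was at 14.05, 19.01, 18.8 and 19.2 CPM and 13.7, 19.2, 16.4 and 13.2 with Senexin B in wildtype lines and at 17.2, 15.2, 17.4 and 15.7 and 19.1, 11.9, 15.7 and 16.9 in Cdk8 KO lines. Med20, a head subunit, was at 24.2, 25.4, 26.2 and 30.2 CPM and 30.6, 23.6, 25.1 and 22.5 with Senexin B in wildtype lines and at 21.3, 27.7, 30.4 and 24.96 and 26.4, 33.4, 30.7 and 23.6 in Cdk8 KO lines. In none of the 4 comparisons of pairs of groups did Polr2c or Med20 have groups that did not overlap.

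The test of whether Senexin B acted differently in the 2 genotypes called 0 members and 0% of all genes (edgeR's quasi-likelihood test, and 0 genes by DESeq2). Med22 was the 1 member (2.70%) with an unadjusted p under 0.05, beside 0.473% of all genes, and the only one by DESeq2. It was lower with Senexin B in all 4 wildtype lines and higher in 3 of 4 Cdk8 KO lines, where the libraries with Senexin B were at 49.8, 37.2, 35.3 and 48.3 CPM. The difference of the changes was 0.45 (SE 0.20, 95% interval 0.01 to 0.88) with an unadjusted p of 0.0442 and an adjusted p of 1.00. Its drop in the wildtype lines was largest in line 2, at -0.78 against -0.22 to -0.14 in the others. Without the Senexin B library of that line the Med22 difference was 0.36 (SE 0.19) and 0 members had an unadjusted p under 0.05. Of the 12 Pol II subunits 10 had a lower change in the Cdk8 KO lines (median -0.25), or 8 without that library (-0.09). Of the 25 Mediator subunits 14 had a lower change (median -0.03). Med21 (-0.43) and Polr2i (-0.41) followed Med22 in order of p, and without that library they were -0.08 and -0.05.

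Lines of 1 genotype differed among themselves in the level of these genes. The median SD of a member between lines was 0.22 (log2), and that of the Senexin B difference within lines 0.26, against 0.28 and 0.31 for all genes. Med16 varied most between lines, with an SD of 0.43, while its within-line difference had an SD of 0.13 (both taken around the genotype means). Med6 (0.35), Polr2g (0.32), Polr2f (0.31) and Med9 (0.31) followed. By group, the members' median SD was 0.20 in wildtype DMSO, 0.34 in wildtype Senexin B, 0.15 in Cdk8 KO DMSO and 0.21 in Cdk8 KO Senexin B.

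The rest of the transcription machinery also had 0 called genes in all 6 comparisons by edgeR's quasi-likelihood test. In DMSO the 7 kinase module genes had a median genotype difference of -0.01, and the 2 with an unadjusted p under 0.05, Cdk8 (-0.55) and Med13l (-0.40), were both lower, each with an adjusted p of 0.897. Of all genes 5.32% had an unadjusted p under 0.05 there, and Cdk8 is the deleted gene. The 18 general transcription factors, which place Pol II on promoters, had a median of 0.07 with 10 higher and 8 lower. For the 12 measured TAF subunits of TFIID the split was 6 to 6 (median -0.01), and for the 14 pausing and elongation factors 8 to 6 (0.02). The 6 subunits found only in RNA polymerase I had a median of 0.14, the 2 shared by polymerases I and III 0.16, and the 11 found only in polymerase III -0.01.

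With Senexin B the 14 pausing and elongation genes were higher in 11 cases in wildtype lines (median 0.05) and in 13 in Cdk8 KO lines (0.06), and the general transcription factors were split 14 higher to 4 lower in wildtype lines (0.06) and 5 to 13 in Cdk8 KO lines (-0.03). In wildtype lines 1 pausing and elongation gene had an unadjusted p under 0.05, beside 3.8% of all genes. Over the 8 lines 10 of 11 polymerase III genes and 11 of 14 pausing and elongation genes were higher, with medians of 0.08 and 0.05, and 1 of each list had an unadjusted p under 0.05, beside 4.86% of all genes. The polymerase I genes (0.03), the TAF subunits (0.01) and the 2 subunits shared by polymerases I and III (-0.12) gave none. Genes of a list share their libraries and no share of all genes that were higher is given, so these counts of direction carry no test.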

How the data were processed

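The 16 RNA-seq libraries fell by their labels (genotype and treatment) into 4 groups of 4, and a replicate number stands for a line. Reads were trimmed (Trimmomatic), aligned to GRCm38 (STAR) and assigned to GENCODE M13 gene models (featureCounts) by the authors, who deposited raw counts with no normalization. Reads on more than 1 gene or with several mappings were not counted and no strand setting is given. The header of the wildtype DMSO file of line 1 names another folder than the other 15, with identical gene models. No pair among 120 pairs of libraries agreed within sampling noise. Gene symbols were matched for 50376 identifiers and not for 310.

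Differences were tested with edgeR 4.0.16 under R 4.3.3, by its quasi-likelihood test in robust form after TMM scaling and the filterByExpr filter, and p-values were adjusted by Benjamini-Hochberg over all genes tested. A gene was called at an adjusted p under 0.05 and a change over 2-fold. Each 2-group comparison used its 8 libraries, and the comparison over 8 lines (genotype as covariate) and the interaction used all 16. The standard error was derived from the log2 fold change and its test. DESeq2 1.42.0 was an alternative, as were other size factors and count filters, all libraries in 1 fit, leaving out each library, and the replicate number as a block; the fits were tested on simulated data. CPM and RPKM were computed here from the deposited counts with TMM-scaled library totals and exon lengths, and within-line differences are of log2(CPM + 1). Promoters are from RefSeq (GRCm38.p6), and 31 of 38 members matched. Longest coding transcripts are from a later GENCODE release than M13.

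The number was taken to pair the libraries of a line within a genotype: across 14164 genes the DMSO and the Senexin B library of each line deviated together from their group means, with correlations of 0.559 to 0.781 in wildtype and 0.765 to 0.872 in Cdk8 KO lines. The labels do not say that lines of the 2 genotypes with the same number were paired. For several members, such as Polr2a (-0.47 in both) and Med26 (0.41 and 0.42), the lines numbered 1 had similar Senexin B changes in both genotypes. For others, such as Med6 (0.20 in wildtype and -0.51 in Cdk8 KO) and Med22 (-0.14 and 0.32), they did not. Whether the 8 lines are independent across genotypes was not tested, and the counts and fits over 8 lines take them as independent. Nothing but the line separates replicates, so p-values for genotype measure the spread between these lines. The Senexin B and interaction fits without the block treat the 2 libraries of a line as independent, so spread between lines enters their p-values. In the blocked Senexin B and interaction fits they measure the spread of the change within lines.

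Of the cell type markers, 1 is not reported here. The members and lists were chosen with earlier results of these data known. Values in every library are given for the 3 members with the smallest unadjusted p in each comparison, for members whose 8 lines moved the same way with Senexin B, for Med1, Med14, Med15, Med17, Med23, Med26, Polr2a, Polr2b, Polr2d and Polr2g, and for members with the highest and lowest levels per length.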

Additional observations from a re-analysis of the deposited data

Results flagged for a closer look

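In 148 groups of 4 libraries (37 members in 4 groups), 11 had a library far from the other 3 by Dixon's test. Chance gives about 5% of groups if values are independent and normal, but members share libraries, and no share over all genes is given. In wildtype DMSO they were Med23 in line 1 at 175.6 CPM (the others 93.1 to 101), Med27 in line 1 at 17.2 CPM (26.3 to 28.1), Polr2c in line 1 at 14.0 CPM (18.8 to 19.2) and Polr2d in line 3 at 106.6 CPM (60.5 to 68.1). Med16 stood at 53.2 CPM in wildtype DMSO line 4 beside 29.6 to 31.2 in the other lines. In Cdk8 KO DMSO line 4 was apart for Med17 at 75.3 CPM (62.4 to 64.5), Polr2j at 108.8 CPM (87.2 to 89.8) and Polr2k at 1.99 CPM (1.19 to 1.21). Polr2k was also apart in Cdk8 KO Senexin B line 4 at 1.95 CPM (0.805 to 0.971) and in wildtype Senexin B line 2 at 2.05 CPM (1.08 to 1.15), on 13 to 28 counts per library. Med19 was apart in Cdk8 KO Senexin B line 1 at 65.2 CPM (46.7 to 49.8).

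The change of Med22 with Senexin B differed between genotypes by 0.45 on the log2 scale, with an unadjusted p of 0.0442 by edgeR's quasi-likelihood interaction test, and failed the adjustment over all genes (adjusted p = 1.00). Without the Senexin B library of wildtype line 2, whose line had the largest drop (-0.78 against -0.22 to -0.14), the difference was 0.36 (SE 0.19) and 0 members had an unadjusted p under 0.05. Med22 was lower in 4 of 4 wildtype and higher in 3 of 4 Cdk8 KO lines.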

How the results depend on the processing

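By edgeR's quasi-likelihood test 0 members were called in each of the 6 comparisons, and likewise with DESeq2, other size factors, other count filters, all 16 libraries in 1 fit, a limit of 0.1 on the adjusted p, and each library left out in turn. An exception was chosen after seeing the data: with the line as a replicate block and no limit on fold, 1 member passed over the 8 lines, Med16 (-0.33 against -0.31 without the block, adjusted p = 0.0389), and in blocked fits without any 1 line 0 passed. The block changed no other call. Across genotypes only the lines numbered 4 matched best by number in their levels (r -0.15 to 0.43 over all numbers). For genotype the block gave 1 member with an unadjusted p under 0.05 in DMSO in place of 2 (Med6, 0.67) and 0 with Senexin B. The difference of Med21 between genotypes with Senexin B (-0.33) reversed to 0.0227 without the Senexin B library of wildtype line 2, the highest value with 1 library left out, the lowest being -0.511. Leaving out 1 library at a time, the members' median ran from -0.04 to 0.01 for genotype in DMSO, -0.11 to 0.02 for genotype with Senexin B, -0.04 to 0.09 for Senexin B in wildtype lines, -0.11 to -0.0026 in Cdk8 KO lines, -0.04 to 0.02 over 8 lines and -0.20 to -0.03 for the interaction, so its sign depends on single libraries in 4 of the 6. Over the whole table DESeq2 called 32, 10, 19, 0, 17 and 0 genes where edgeR called 1, 0, 0, 0, 0 and 0, in the order of the text. Polr2k, at 13 to 28 counts, is limited by depth.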
